A study of Mus musculus with 6 samples.

Results

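The SOCS family of cytokine feedback genes was followed across eosinophils treated with IL-33 or IL-4. Its 8 members, Cish and Socs1 to Socs7, were taken by gene symbol from a total of 22548 symbols, and all 8 were found, with 11 transcripts between them. RNA-seq had been done on wild-type BALB/c mouse cells in 6 groups with 1 library each: IL-33 for 1 h, IL-4 for 1 h, control for 1 h, IL-33 for 4 h, IL-4 for 4 h and control for 4 h. The labels name no agent for the controls, which are called untreated here. The mice were 4 to 8 weeks old, and low-density bone marrow cells had grown for 14 days in total. For the first 4 days the medium held FLT3 ligand and stem cell factor (100 ng/ml each), and afterwards IL-5 (10 ng/ml). IL-33 and IL-4 were used at 10 ng/ml. All 6 groups had thus been kept in IL-5, whose receptor signals through JAK2 and STAT5, before IL-33 or IL-4 was added. The labels do not say how many mice or cultures were used. By its title, the study asked which part of the IL-33 response runs through IL-4 that the eosinophils themselves release.

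SOCS proteins bind tyrosine-phosphorylated receptors or JAK kinases through an SH2 domain and recruit a ubiquitin ligase through a carboxy-terminal SOCS box. Several of the genes are induced by the STAT factors whose activation they limit, which makes them classical negative feedback genes of cytokine signalling. CIS, the product of Cish, binds receptor chains that recruit STAT5. SOCS1 and SOCS3 carry a kinase inhibitory region that blocks JAKs, SOCS1 being known for restraint of interferon-gamma and IL-4 signalling and SOCS3 for restraint of the IL-6 and G-CSF receptors. SOCS2 limits growth hormone signalling, and SOCS4 to SOCS7 are studied mainly with growth factor and insulin receptors.

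Levels are in FPKM, fragments per kilobase of transcript, scaled for library depth, with the transcripts of a gene summed. Each of the 4 tables, 1 for each cytokine and time, had been scaled separately, so that the untreated library of 1 h was 0.945 times as high in the IL-33 table as in the IL-4 table, and that of 4 h 0.947 times. Each change was therefore taken within 1 table, as the log2 ratio of FPKM + 1, and "higher" or "lower" means a log2 change of at least 1 in size with at least 1 FPKM in 1 of the libraries compared. This scale understates changes of low genes, so the plain ratio of FPKM is given as a fold. The low values of each library fell on steps that showed what 1 read was worth: in 1 kb of transcript, 1 FPKM stood for 15.4 to 30.8 reads by library and table. IL-33 4 h had 1.89 times the depth of untreated 4 h, IL-4 4 h 1.24 times, IL-33 1 h 1.16 times that of untreated 1 h, and IL-4 1 h 0.977 times. Each fold has an exact (Clopper-Pearson) 95% interval for the reads expected in 1 kb of transcript, which covers counting error only. This length is fixed, so for a longer transcript the interval is wider than its own reads would give. With 1 library a group, no spread between cultures could be measured and no test of a condition was possible.

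All 10 eosinophil markers, such as the granule protein gene Prg2, were present in every library, and their summed level was 59489 to 74076 FPKM. Markers of other cells were present too. Summed levels were 5869 to 8133 FPKM for 10 neutrophil markers, 1584 to 2587 for 11 monocyte, macrophage and dendritic cell markers, 366 to 447 for 10 mast cell and basophil markers, 277 to 315 for 9 erythroid and megakaryocyte markers and 25.7 to 29.0 for 11 lymphoid markers. The mast cell gene Mcpt4 was listed at 0 in 5 of the 6 libraries, Tpsb2 in both IL-4 libraries, and the T-cell gene Cd3e in untreated 1 h. Other genes of these lists were present, such as Hdc at 96.8 to 234 FPKM, Cpa3 at 75.2 to 101 FPKM and Cd3g at 5.39 to 14.9 FPKM. In each of the 4 comparisons, 7 of 10 mast cell and basophil markers and 5 of 11 lymphoid markers had at least 1 FPKM in 1 of the libraries compared. No eosinophil marker was higher or lower with IL-33 at 4 h, where their median log2 change was -0.14. Il5ra stood at 12.9 FPKM there against 24.7 in untreated cells, Alox15 at 546 against 925 and Epx at 1327 against 1920. Ear1 alone lay above its untreated level, at 7815 against 7466 FPKM. Most of the eosinophil sum was Prg2, at 41838 FPKM against 44745. With IL-33 at 4 h the neutrophil sum was 5869 FPKM against 7705 in untreated cells, and the monocyte, macrophage and dendritic cell sum was 2297 FPKM against 1584 in untreated cells, where Cd14, Csf1r and Mrc1 were higher and the median log2 change of the 11 markers was -0.05. C1qa, C1qb, Cd74, H2-Aa, Ms4a7 and Itgax lay slightly below their untreated levels there, with C1qa at 14.7 FPKM with IL-33 against 18.8 in untreated cells. The sum also held Emr1, at 523 FPKM with IL-33 against 276 in untreated cells, and Ly6c2, at 1057 against 860 FPKM, both short of the size rule. Cd14 was also higher with IL-33 at 1 h (log2 change 1.03), Mrc1 with IL-4 at 4 h (1.39) and the lymphoid marker Klrb1c with IL-33 at 4 h (7.07 FPKM against 1.85 in untreated cells). In these bulk libraries, fewer cells of a type and less RNA per cell cannot be told apart, and the part of these cells in the SOCS values was not tested.

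The 8 genes differed widely in level, and the family total was highest with IL-33. Summed over the members, the level was 247 FPKM with IL-33 and 92.7 FPKM in untreated cells of the same table at 1 h, and 201 FPKM with IL-33 and 80.4 FPKM in untreated cells at 4 h. With IL-4 the sum was 133 FPKM against 98.1 in untreated cells at 1 h, and 117 FPKM against 84.9 in untreated cells at 4 h. Most of the difference between IL-33 and untreated cells lay in Cish and Socs2. Socs2 held 43.4% of the family total with IL-33 at 1 h and 60.3% in untreated cells, while Cish held 41.1% with IL-33 and 10.2% in untreated cells. Socs1 made up 13.8% of the total with IL-4 at 1 h, against 2.86% without cytokine, and 18.4% with IL-4 at 4 h, against 4.84%. In untreated cells of both times Socs2 was the highest member, Cish and Socs4 held the next places, and Socs3 was the lowest with Socs1 above it. Neighbours in this order, such as Cish and Socs4 at 1 h (9.48 and 9.51 FPKM in the IL-33 table), could not be told apart where they lay this close, since no spread between libraries was measured.

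**Figure D1:**
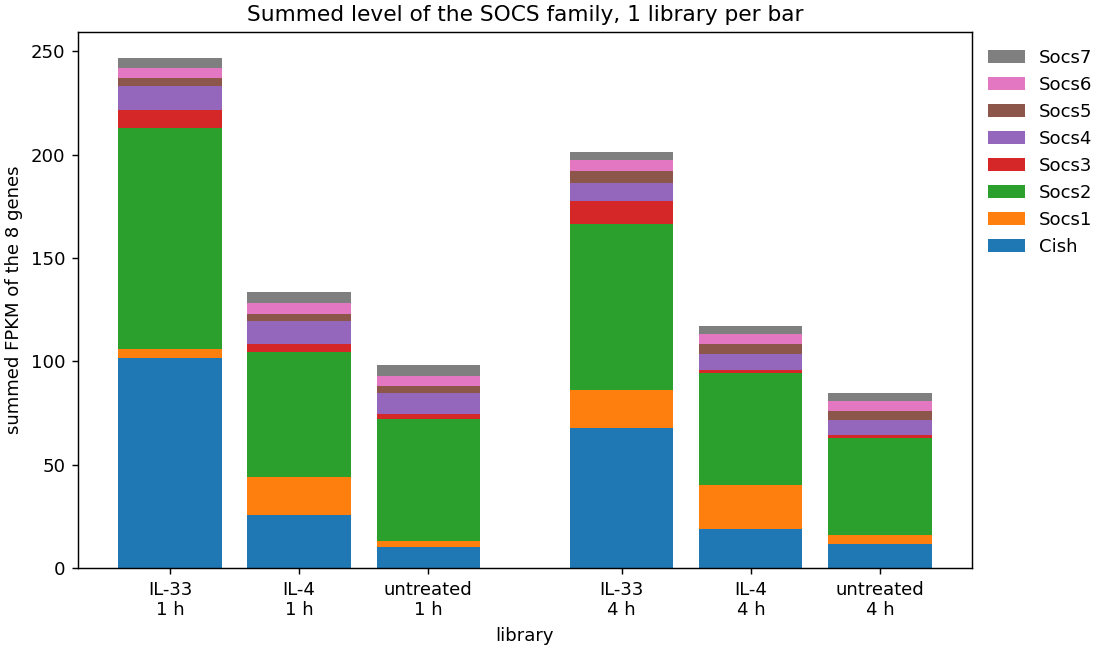
Stacked bars show the FPKM of the 8 SOCS family genes, summed, in each of the 6 libraries, with 1 library per bar, 1 h to the left and 4 h to the right, and untreated values from the IL-4 tables, while the IL-33 tables stood at 0.945 (1 h) and 0.947 (4 h) times that scale. Cish (bottom) and Socs2 together take up most of the taller IL-33 bars of 247 and 201 FPKM, and Socs1 (second from the bottom) is thickest in both IL-4 bars and in IL-33 4 h.

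The promoters of Cish, Socs1 and Socs3 are shown because these members passed the size rule in at least 1 of the 4 comparisons. RefSeq promoter windows on build GRCm38.p6, which differs from the mm9 build of the expression files, were at hand for these and Socs4, 4 of the 8 members. Each run below goes 5′ to 3′ from base -200 to base 30, counting the annotated transcription start as base 1. Capitals mark TTCNNNGAA, the palindrome bound by STAT5 and other STATs, in Cish and Socs3, and a repeat of GAAA after any 2 bases, as in interferon response elements, in Socs1.
Cish: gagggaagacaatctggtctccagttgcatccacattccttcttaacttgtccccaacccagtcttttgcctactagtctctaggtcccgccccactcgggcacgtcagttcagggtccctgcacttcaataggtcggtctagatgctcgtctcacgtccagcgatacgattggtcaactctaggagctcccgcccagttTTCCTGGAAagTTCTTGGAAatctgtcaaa
Socs1: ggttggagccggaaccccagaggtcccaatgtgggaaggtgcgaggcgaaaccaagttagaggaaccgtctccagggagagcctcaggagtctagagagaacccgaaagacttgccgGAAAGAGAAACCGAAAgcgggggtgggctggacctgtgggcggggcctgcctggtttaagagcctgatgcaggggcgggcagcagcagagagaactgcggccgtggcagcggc
Socs3: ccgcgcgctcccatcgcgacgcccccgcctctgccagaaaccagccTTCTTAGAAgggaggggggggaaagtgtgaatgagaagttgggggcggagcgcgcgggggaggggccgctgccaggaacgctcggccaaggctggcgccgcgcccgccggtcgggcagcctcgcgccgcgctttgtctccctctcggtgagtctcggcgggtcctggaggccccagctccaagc
The Cish run is chr9:107296459-107296688 on the plus strand, the Socs1 run chr16:10785507-10785736 on the minus strand and the Socs3 run chr11:117969337-117969566 on the minus strand.

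Motifs were searched on both strands of the whole windows, from 250 bases before the start to 50 after it. TTCNNNGAA occurred in Cish at bases 1 and 12, as TTCCTGGAA and TTCTTGGAA with 2 bases between them, and in Socs3 at base -154, as TTCTTAGAA. At least 1 such match was found in 8.30% of 32851 promoter windows of all genes, and at least 2 in 0.457%. TTC and GAA with 4 bases between them, the spacing preferred by STAT6, was in none of the 4 windows and in 6.95% of all windows. The GAAA repeat occurred among the 4 in Socs1 alone, at bases -83 and -77 in matches that overlap by 4 bases, and in 3.44% of all windows. The NF-kB motif was in none of the 4 and in 4.51% of all. Socs4 had none of these motifs. The letters describe these windows only and do not show that a factor binds.

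Cish (NM_009895, chromosome 9, 107199020 to 107204292 in mm9), with 3 coding exons and a protein of 257 residues, had the largest IL-33 log2 change of the family at both times, although by plain fold Socs3 exceeded it at 4 h. It stood at 101 FPKM with IL-33 and 9.48 FPKM in untreated cells at 1 h, and at 67.7 FPKM with IL-33 and 11.2 FPKM in untreated cells at 4 h. These are 10.7-fold (interval 9.28 to 12.3) and 6.05-fold (5.20 to 7.08) differences, with log2 changes of 3.29 and 2.49. At 1 h, Cish had rank 52 from the top among the 10616 genes compared. With IL-4 it stood at 25.7 FPKM against 10.03 in untreated cells at 1 h, a 2.57-fold difference (2.18 to 3.03; log2 change 1.28), and at 18.7 against 11.8 FPKM in untreated cells at 4 h, 1.59-fold (1.33 to 1.91). The IL-4 log2 change of 0.62 at 4 h did not pass the size rule. Cish was thus above its untreated partner with each cytokine at each time, and with both cytokines the change was smaller at 4 h, with 4 h minus 1 h differences of -0.79 for IL-33 and -0.65 for IL-4 on the log2 scale.

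Socs1 (NM_009896, chromosome 16, 10783902 to 10785629), whose 212 residues are encoded in 1 exon, passed the size rule with IL-4 at both times but with IL-33 at 4 h only. With IL-4 it was already high at 1 h, at 18.4 FPKM against 2.80 in untreated cells, and it stood at 21.5 against 4.11 FPKM in untreated cells at 4 h. The folds were 6.56 (4.96 to 8.75) and 5.24 (4.04 to 6.99), with log2 changes of 2.35 and 2.14, and Socs1 had rank 33 of 10628 genes and rank 32 of 10833. With IL-33, Socs1 stood at 4.54 FPKM against 2.65 in untreated cells at 1 h, 1.71-fold (1.24 to 2.38), a log2 change of 0.60 that did not pass the size rule. At 4 h it reached 18.6 FPKM with IL-33 against 3.89 in untreated cells, 4.78-fold (3.71 to 6.35), a log2 change of 2.00. The IL-33 change at 4 h exceeded that at 1 h by 1.40 log2, whereas the IL-4 changes at 4 h and 1 h differed by -0.21.

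Socs3 (NM_007707, chromosome 11, 117827401 to 117830680), a protein of 225 residues also encoded in 1 exon, was a low gene in untreated cells and passed the size rule with IL-33 but not with IL-4. It stood at 8.37 FPKM with IL-33 against 2.56 in untreated cells at 1 h, 3.27-fold (2.43 to 4.46; log2 change 1.40). At 4 h it stood at 11.3 FPKM with IL-33 against 1.37 in untreated cells, 8.20-fold (5.43 to 13.5; log2 change 2.37), and the interval is wide because the untreated library held only 22 reads per kb. With IL-4, Socs3 stood at 3.92 against 2.71 FPKM in untreated cells at 1 h, 1.45-fold (1.01 to 2.05), and at 1.80 against 1.45 FPKM in untreated cells at 4 h, 1.24-fold (0.730 to 2.29). The IL-4 log2 changes of 0.41 and 0.19 did not pass the rule. The IL-33 change was 0.97 log2 larger at 4 h than at 1 h, so Socs3, like Socs1, had its larger IL-33 change at the later time. The levels behind it differed. On the scale of the IL-4 tables, Socs3 with IL-33 stood at 8.86 FPKM at 1 h and 11.9 at 4 h. Untreated Socs3 stood at 2.71 and 1.45 FPKM, so its larger 4 h change also held a lower untreated level. Socs1 with IL-33 stood at 4.80 and 19.7 FPKM, and untreated at 2.80 and 4.11. The 2 times were not matched in scale.

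**Figure D2:**
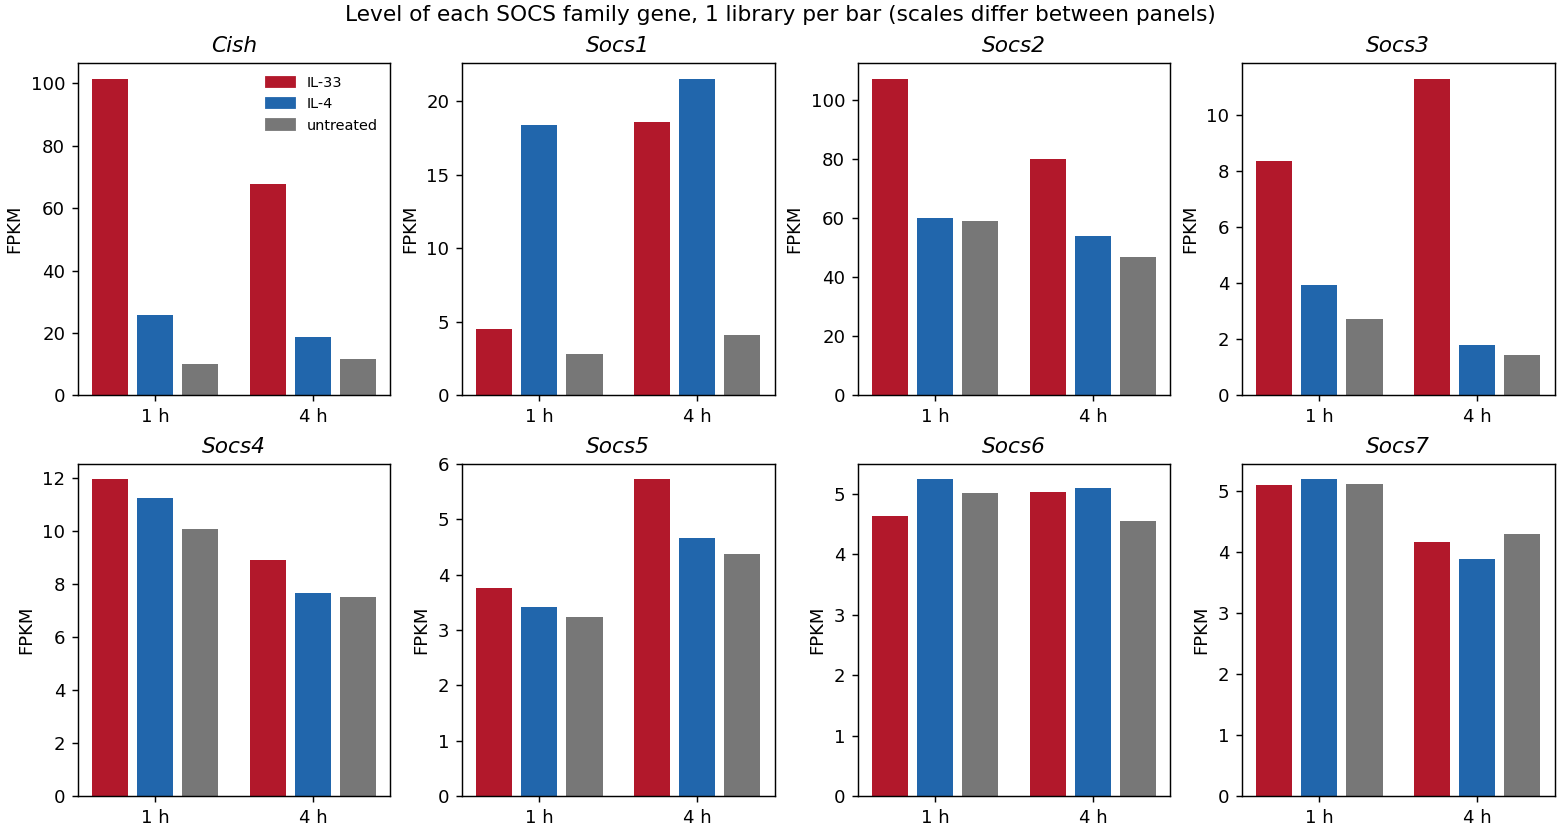
Bars give the FPKM of each SOCS family gene in the 6 libraries, 1 library per bar, with IL-33, IL-4 and untreated cells from left to right at 1 h and then at 4 h; untreated values are those of the IL-4 tables, and the IL-33 tables stood at 0.945 (1 h) and 0.947 (4 h) times that scale. Cish, Socs2 and Socs3 are tallest in the IL-33 bars, and Socs1 is tall in both IL-4 bars and in IL-33 4 h. Socs4 to Socs7 span at most 1.87-fold once IL-33 values are on the IL-4 scale of their time, with 1 h and 4 h not matched.

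Socs2 (chromosome 10, 94874124 to 94879491), encoding the shortest protein of the family at 198 residues, was the most abundant member in untreated cells and lay just under the size rule with IL-33. It stood at 107 FPKM with IL-33 against 55.9 in untreated cells at 1 h, and at 80.1 against 44.3 FPKM in untreated cells at 4 h. The folds of 1.92 (1.79 to 2.05) and 1.81 (1.66 to 1.96) had narrow intervals, and the log2 changes were 0.93 and 0.84. With IL-4 it stood at 60.2 against 59.2 FPKM in untreated cells at 1 h, 1.02-fold (0.939 to 1.10), and at 53.9 against 46.8 FPKM in untreated cells at 4 h, 1.15-fold (1.05 to 1.27).

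Socs2 was the only member listed with several transcripts, and its FPKM was spread over 4 that each encode 198 residues. NM_007706 had the largest IL-33 change at 1 h, at 36.6 FPKM against 13.1 in untreated cells (log2 change 1.41), and it took 34.2% of the gene's FPKM against 23.5%. NM_001168655, NM_001168656 and NM_001168657 had log2 changes of 0.80, 0.48 and 0.77 in the same comparison. At 4 h the IL-33 changes of the 4 transcripts lay between 0.58 and 0.96, and NM_007706 had the smallest. These transcripts overlap, so that reads must be divided among them by the authors' estimate. Since FPKM is taken per kilobase of transcript, the sum also depends on that division where the transcripts differ in length. Taken from NM_007706 alone, Socs2 would be higher with IL-33 at 1 h. Summed Socs2 with IL-33 at 1 h was also past the rule when set against untreated cells of 4 h (1.25), a change across separately scaled tables.

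**Figure D3:**
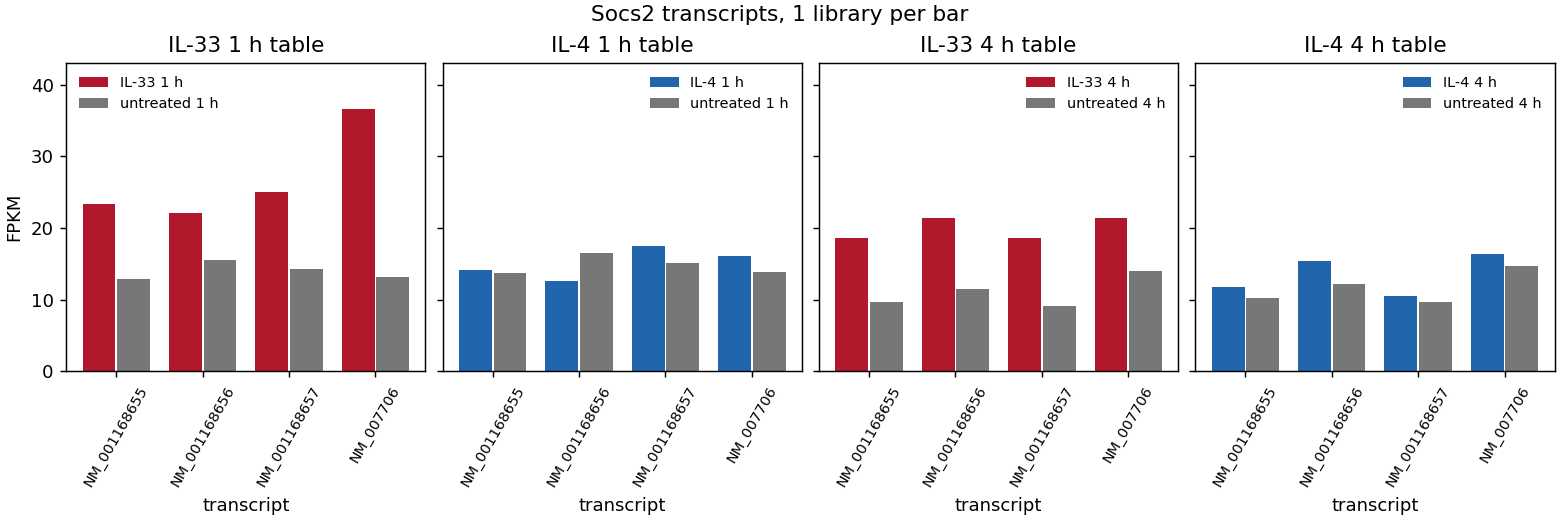
Bars give the FPKM of the 4 Socs2 transcripts in the treated library and in the untreated library of the same table, 1 library per bar and 1 panel per table. All 4 IL-33 bars stand above the untreated bars at both times, with NM_007706 at 36.6 FPKM the tallest at 1 h. The IL-4 bars stay nearer to the untreated ones. Furthest is NM_001168656, at 12.6 FPKM with IL-4 against 16.5 in untreated cells at 1 h, and at 15.4 against 12.2 FPKM at 4 h.

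Socs4, Socs5, Socs6 and Socs7 did not pass the size rule in any comparison. For the 6 libraries, IL-33 values were put on the scale of the IL-4 table of the same time. The highest level was then 1.69 times the lowest for Socs4, 1.87 times for Socs5, 1.17 times for Socs6 and 1.39 times for Socs7. For Cish it was 10.7 times. The 1 h and 4 h tables share no library and were not matched, so these ratios may hold a difference in scaling. SOCS6 is known to bind the KIT receptor, and SOCS7 binds adaptor proteins such as NCK. In mm9, Socs4 (NM_080843) lies on chromosome 14 at 47896818 to 47911266, Socs5 (NM_019654) on chromosome 17 at 87507019 to 87536925, Socs6 (NM_018821) on chromosome 18 at 89037272 to 89063599 and Socs7 (NM_138657) on chromosome 11 at 97223865 to 97259856. In the cytokine libraries, each on the scale of its own table, they ranged from 3.42 FPKM (Socs5, IL-4 1 h) to 11.9 FPKM (Socs4, IL-33 1 h). In the untreated libraries of the IL-4 tables they ranged from 3.24 FPKM (Socs5, 1 h) to 10.1 FPKM (Socs4, 1 h). Socs4 stood at 11.9 FPKM with IL-33 against 9.51 in untreated cells at 1 h, 1.26-fold (1.05 to 1.51), and at 8.90 against 7.11 FPKM in untreated cells at 4 h, 1.25-fold (1.00 to 1.57). Socs5, known for restraint of EGF receptor signalling, stood at 5.72 FPKM with IL-33 against 4.15 in untreated cells at 4 h, 1.38-fold (1.03 to 1.84). Its interval at 1 h, 0.893 to 1.70, included no change. For Socs6 and Socs7 every interval in the 4 comparisons included 1, with folds from 0.978 to 1.17 and from 0.907 to 1.06. With IL-4, the folds of these 4 members ran from 0.907 to 1.12 and each interval included 1. These intervals are for 1 kb of transcript, and the coding sequences of Socs4 to Socs7 alone are 1308, 1608, 1599 and 1737 bases. Intervals for the whole transcripts would be narrower, and whether those would include 1 was not tested. The largest log2 change of any of these 4 members with a cytokine was 0.39. In the 4 comparisons, their interval with the highest upper bound ended at 1.84.

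Counted by comparison, 2 of 8 members passed the rule upward with IL-33 at 1 h (Cish and Socs3), against 2.36% of 10616 genes compared, and 3 of 8 at 4 h (Cish, Socs1 and Socs3), against 4.15% of 10803 genes. With IL-4, 2 of 8 were higher at 1 h (Cish and Socs1), against 0.47% of 10628 genes, and 1 of 8 at 4 h (Socs1), against 0.646% of 10833 genes. No member was lower in these comparisons, where 0.669%, 1.38%, 0.358% and 0.351% of genes were lower in the same order. The median log2 change of the 8 members was 0.45 and 0.61 with IL-33 at 1 h and 4 h, against -0.01 and -0.03 for all genes, and 0.10 and 0.17 with IL-4, against -0.02 and 0.02. All members had at least 1 FPKM in every library and so none was filtered out. The IL-33 and IL-4 comparisons of a time share the untreated library.

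**Figure D4:**
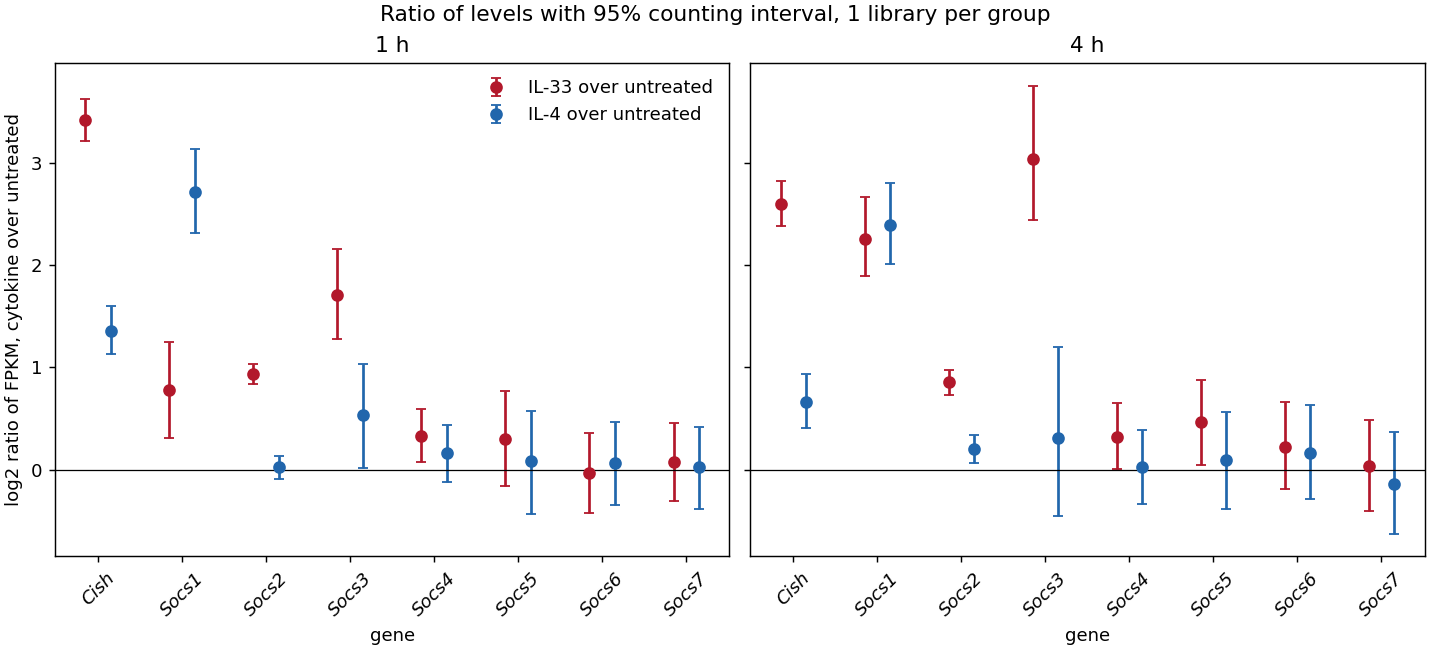
Points give the log2 ratio of FPKM of each SOCS family gene, IL-33 over untreated and IL-4 over untreated, at 1 h and 4 h, and bars give the 95% counting interval for reads in 1 kb of transcript, with 1 library per group. Cish and Socs3 stand higher with IL-33 at both times, Socs1 stands higher with IL-4 at 1 h and near 4.78-fold and 5.24-fold with IL-33 and IL-4 at 4 h, and the points of Socs4 to Socs7 stay near 0.

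The cytokines were compared with each other through their log2 changes, IL-33 minus IL-4, each taken within its table. At 1 h, Cish was higher with IL-33 than with IL-4 (difference 2.01) and Socs1 was lower (-1.75), against 2.34% of 10748 genes higher and 0.661% lower. After the table factor, Cish was 4.17-fold (3.80 to 4.59) and Socs1 0.261-fold (0.210 to 0.322) the IL-4 level. Socs3 and Socs2 lay just short of the rule at 1 h, with differences of 0.99 and 0.90 and folds of 2.26 (1.75 to 2.97) and 1.88 (1.76 to 2.02). At 4 h, Cish (1.87) and Socs3 (2.18) were higher with IL-33 and none was lower, against 3.66% and 1.07% of 10976 genes. Socs3 was then 6.60-fold (4.60 to 9.53) and Socs2 1.57-fold (1.46 to 1.69) the IL-4 level. For Socs1 the 4 h level with IL-33 was 0.913-fold that with IL-4. Its interval for 1 kb of transcript, 0.804 to 1.04, included equal levels.

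Untreated cells of 4 h and 1 h were compared across the IL-4 tables, which were scaled separately and share no library to match them by. The median log2 change of all genes compared was 0.099, and the folds and intervals below do not allow for it. No member passed the size rule, while 0.879% of 10813 genes were higher and 1.56% lower. Socs3 stood at 1.45 FPKM at 4 h and 2.71 at 1 h, 0.536-fold (0.305 to 0.871), Socs4 at 7.50 FPKM at 4 h and 10.1 at 1 h, 0.745-fold (0.590 to 0.941), and Socs2 at 46.8 FPKM at 4 h and 59.2 at 1 h, 0.791-fold (0.720 to 0.867). Socs1 stood at 4.11 FPKM at 4 h and 2.80 at 1 h, 1.47-fold (1.00 to 2.11). The low untreated Socs3 level of 4 h enters the 8.20-fold difference seen with IL-33.

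The wider JAK-STAT system was described from lists of other genes. Their counts stand beside a share of all genes higher of 2.36% with IL-33 at 1 h, 4.15% with IL-33 at 4 h, 0.47% with IL-4 at 1 h and 0.646% with IL-4 at 4 h, and a share lower of 0.669%, 1.38%, 0.358% and 0.351%. None of 17 other brakes on the pathway was higher with IL-33 at 1 h and Usp18, an inhibitor of type I interferon receptor signalling, was lower, at 19.9 FPKM against 44.9 in untreated cells. At 4 h 1 was higher, the phosphatase gene Ptpn1, at 138 against 46.3 FPKM in untreated cells. With IL-4 none of the 17 was higher or lower at either time. None of 9 genes for the ubiquitin ligase partners of the SOCS box, such as cullin 5, was past the rule in the 4 comparisons. Among 13 compared genes of other SOCS-box proteins, Asb2 alone was higher with IL-33, at 22.4 against 7.24 FPKM in untreated cells at 1 h and 51.6 against 7.14 FPKM in untreated cells at 4 h, and none was higher with IL-4.

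Upstream, none of 11 JAK and STAT genes was past the rule with IL-33 at 1 h, and 2 were higher at 4 h, Tyk2 at 51.4 against 19.1 FPKM in untreated cells and Jak2 at 90.3 against 41.3 FPKM in untreated cells. Of the receptor chains that signal through JAKs, IL-33 had 2 of 21 compared higher at 1 h (2.36% of all genes), and 3 of 19 higher and 1 lower at 4 h (4.15% and 1.38% of all genes). Il10ra, a chain of the IL-10 receptor, stood at 37.7 FPKM with IL-33 against 7.75 in untreated cells at 1 h and at 27.3 against 6.43 FPKM in untreated cells at 4 h. Il2rg, the chain shared by the IL-2 and IL-4 receptors, reached 182 FPKM with IL-33 against 38.8 in untreated cells at 4 h, and Il10rb 135 against 52.0 FPKM in untreated cells. Epor, the erythropoietin receptor, was lower (2.85 against 8.00 FPKM in untreated cells). Il6st, the gp130 chain, stood at 5.55 FPKM with IL-33 against 2.49 in untreated cells at 4 h, a log2 change of 0.91 just under the rule. With IL-4 it stood at 6.52 FPKM against 2.63 in untreated cells at 4 h, a log2 change of 1.05 just past it.

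Of the ligands, Il6 stood at 217 FPKM with IL-33 against 7.31 in untreated cells at 1 h and at 336 against 4.75 FPKM in untreated cells at 4 h, and Il13 at 17.3 FPKM with IL-33 against 2.01 in untreated cells at 1 h and at 46.8 against 0.971 FPKM in untreated cells at 4 h. Of 22 ligand genes listed, 8 were compared with IL-33 at each time, and 7 and 6 with IL-4 at 1 h and 4 h. With IL-33, 2 of 8 were higher at 1 h (2.36% of all genes). At 4 h 3 of 8 were higher and 1, Il15, was lower (4.15% and 1.38% of all genes). None of those compared was past the rule with IL-4. A gene under 1 FPKM in untreated cells, such as Il13 at 4 h, entered these counts only through its IL-33 library.

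Known targets of the STAT factors were counted beside the members, against shares of all genes higher of 2.36% and 4.15% with IL-33 at 1 h and 4 h and 0.47% and 0.646% with IL-4. Of STAT5 targets, IL-33 had 4 of 15 compared higher at 1 h and 3 of 14 at 4 h, against 0 of 15 and 2 of 14 with IL-4. The kinase gene Pim1 stood at 324 FPKM with IL-33 against 64.7 in untreated cells at 1 h, and Pim2 at 165 against 4.33 FPKM in untreated cells at 4 h. Of STAT6 targets, IL-33 had 2 of 16 higher at 1 h and 7 of 16 at 4 h, and with IL-4 0 of 15 at 1 h and 6 of 16 at 4 h. Arg1 stood at 9.43 FPKM with IL-33 against 1.24 in untreated cells at 4 h and at 10.8 FPKM with IL-4 against 1.31 in untreated cells at 4 h. Retnla, a gene of alternatively activated macrophages, stood at 13.4 FPKM with IL-33 against 8.18 in untreated cells at 4 h (log2 change 0.65), and at 43.1 FPKM with IL-4 against 8.64 in untreated cells at 4 h (2.20). Set against each other at 4 h, IL-33 minus IL-4, 3 of 17 STAT6 targets were higher and 2 lower, against 3.66% and 1.07% of all genes. Of STAT3 targets, IL-33 had 4 of 14 higher at 1 h and 5 of 15 at 4 h, and none with IL-4, with Bcl3 at 91.0 FPKM with IL-33 against 6.89 in untreated cells at 4 h. Of 15 NF-kB feedback genes, IL-33 had 10 higher at 1 h and 11 at 4 h, and IL-4 had none. Their median log2 changes were 2.43 and 2.21 with IL-33, against 0.45 and 0.61 for the SOCS members. The medians with IL-33 at 1 h and 4 h were 0.40 and 0.57 for STAT3 targets, 0.12 and 0.33 for STAT5 targets, and 0.11 and 0.63 for STAT6 targets. Some genes stand in several of these lists, and Bcl3 was counted both as a STAT3 target and as an NF-kB feedback gene.

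The genes most like the 3 members past the rule were found by the distance of their 4 log2 changes, over 7624 genes with at least 5 FPKM in at least 1 of the 6 libraries, predicted genes passed over. Nearest to Cish were the niacin receptor gene Niacr1 (distance 1.31), the phosphodiesterase gene Pde4b (1.35) and the Ral exchange factor gene Ralgds (1.44). Nearest to Socs1 were the chemokine genes Ccl7 (0.94) and Ccl2 (1.04), then Pet117 (1.75). Ccl7 had log2 changes of 1.01 and 2.19 with IL-33 at 1 h and 4 h and of 1.53 and 2.23 with IL-4. Nearest to Socs3 were the kinase gene Map3k8 (0.36), the inflammatory caspase gene Casp4 (0.43) and the guanylate-binding protein gene Gbp2 (0.44), and Map3k8 had log2 changes of 1.48 and 2.59 with IL-33 and of 0.50 and -0.06 with IL-4. Socs3 thus had close neighbours in this measure, while no gene considered lay nearer to Cish than 1.31.

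In the authors' deposited table of 1593 regulated genes, 4 members were listed, Cish, Socs1, Socs2 and Socs3. Its log2 fold changes are ratios without an added FPKM, and those of Cish were 3.42 and 2.60 with IL-33 and 1.36 and 0.67 with IL-4 at 1 h and 4 h in the authors' deposited table. For Socs1 with IL-33 at 1 h, Socs2 with IL-4 at 1 h and Socs3 with IL-4 at 4 h the authors' deposited table gave exactly 0, and the summed FPKM gave 0.78, 0.02 and 0.31.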

How the data were processed

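Total RNA of 6 samples was sequenced as single reads with Illumina libraries, per the labels' protocols. The submitters' processing notes name TopHat 1.4.1, Cuffdiff 1.2.1 and the mm9 build. The authors deposited FPKM for 28702 RefSeq transcripts in 4 tables, each with 1 treated and 1 untreated library, and a list of log2 fold changes for 1593 genes. Other steps are not given in the sources used here. Cuffdiff divides reads among overlapping transcripts, so values per transcript are less certain than their sum.

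From these values, transcripts were summed per symbol (22548 symbols; for 232 at several loci the locus of highest FPKM was kept). Log2 changes used a pseudocount of 1 FPKM and a minimum of 1 FPKM in 1 library. Reads per FPKM came from 1290 to 1453 low values of genes with 1 transcript, given GENCODE vM21 transcript lengths less 205 bases; 55.5% to 58.0% of these values lay within 0.05 reads of a whole number. File positions start at base 0 and are printed from base 1. Each member was named; from each list, up to 5 genes past the rule with at least 5 FPKM could be named, and 3 genes by likeness. The alternatives were another pseudocount (0.1), no filter, a minimum of 5 FPKM, the transcript of highest FPKM, centring, and the control of the other time. The members and lists were chosen with earlier results of these data known. The higher and lower calls were checked on simulated libraries, for genes with at least 5 FPKM in untreated cells. Untreated Socs1 and Socs3 lay below that level. The summing of transcripts, the table factors, the read steps and the counting intervals were not checked in this way. Python 3.11.15, pandas 2.3.3, numpy 2.4.6 and scipy 1.17.1 were used.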

Additional observations from a re-analysis of the deposited data

Results flagged for a closer look

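Socs6 and Socs7 had log2 changes of opposite sign between the cytokines or between times, with 1 library in each group and no test of the difference. Socs6 stood at -0.0263 with IL-33 at 1 h, 0.19 with IL-33 at 4 h and 0.0531 with IL-4 at 1 h. Socs7 stood at 0.0267 with IL-33 at 4 h, 0.0190 with IL-4 at 1 h and -0.11 with IL-4 at 4 h. Each of these changes had a counting interval, for 1 kb of transcript, that included no change.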

How the results depend on the processing

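The pseudocount of 0.1, centring on the median of all genes and the control of the other time could move every member they were run on, and under these 3 no member past the size rule changed sign or dropped below it. Leaving out the filter repeated the same values, the minimum of 5 FPKM could only drop members, and the transcript of highest FPKM could move Socs2 alone. In 5 cases a member passed the rule only under an alternative. With a pseudocount of 0.1, Socs3 at 1 h was higher under IL-33 than under IL-4 (1.16). With the transcript of highest FPKM, Socs2 was higher with IL-33 at 1 h against untreated cells (1.41) and against IL-4 (1.22). Against the control of the other time, which lies in a separately scaled table, Socs2 was higher with IL-33 at 1 h (1.25) and Socs3 with IL-4 at 1 h (1.00). With the pseudocount of 0.1, and likewise with the transcript of highest FPKM, 2 members in place of 1 were higher under IL-33 when set against IL-4 at 1 h. No other count of members moved by over 1.5 times. A move from 2 to 3 is not over that limit, and the count higher with IL-33 at 1 h was 3 with the transcript of highest FPKM. Against the control of the other time, Socs2 was added to the count with IL-33 at 1 h and Socs3 to that with IL-4 at 1 h. No paired analysis was possible because each group had 1 library, and for the same reason no replicate could be left out. Depth limits Socs3 most, with 22 reads per kb in untreated cells of 4 h.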
